A study of Mus musculus with 12 samples.

Results

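The genes described here are 8 identity genes of inhibitory interneurons: Gad1, Gad2, Slc32a1, Pvalb, Calb2, Lhx6, Reln and Nos1. They were taken by gene symbol from a list of what interneurons make, release and express as subtype markers, and all 8 were found among the 17564 genes measured by RNA-seq in the ventral hippocampus (vHPC) of male mice on a C57BL/6 background. Corticosterone (CORT), the main glucocorticoid of rodents, was given by mouth for 6 weeks from 2 months of age at 25 mg/l in 1% ethanol, and vehicle (VEH) was 1% ethanol alone. The 4 groups crossed both genotypes, WT and BDNF het-Met (labelled BDNF Val66Met), with both treatments, each with 3 libraries made from RNA pooled over 2 animals. BDNF het-Met mice, called het-Met mice from here on, carry a knock-in that puts the Met-coding variant into 1 of their copies of Bdnf in every cell, so neither genotype is a model of interneurons alone. The design asks whether CORT changed these genes in either genotype and whether the change differed between genotypes.

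Inhibitory interneurons release GABA, the main inhibitory transmitter of the brain, onto the principal cells and onto each other. GABA is made from glutamate by the enzymes of Gad1 (GAD67) and Gad2 (GAD65), and the transporter of Slc32a1 (VGAT) loads it into synaptic vesicles. The transcription factor Lhx6 marks interneurons born in the medial ganglionic eminence, which include the fast-spiking basket and axo-axonic cells that hold the calcium buffer parvalbumin (Pvalb). Calretinin (Calb2) marks interneurons that largely contact other interneurons, reelin (Reln) is a secreted glycoprotein of dendrite-targeting and neurogliaform cells, and neuronal nitric oxide synthase (Nos1) marks neurogliaform and ivy cells. In the hippocampus 3 of these labels are not private to interneurons, since mossy cells of the mouse hilus hold calretinin, Cajal-Retzius cells hold reelin, and principal cells hold some Nos1.

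The values are those of 2 deposited tables, 1 per genotype, of a limma-voom fit over all groups, and they hold no value of a single library or group. Each gene therefore has 1 mean level over all libraries, in log2 CPM (counts scaled to the size of the library), and 1 CORT effect per genotype, given here as a log2 fold change of CORT over VEH ± its moderated standard error (SE). Mean levels ran from -2.42 to 13.82 log2 CPM, with a median of 3.87. The listed residual degrees of freedom were 7, where 12 libraries in 4 groups leave 8 and 11 libraries leave 7, and the ordinary SE of WT exceeded that of het-Met by a median ratio of 1.124, where 2 against 3 libraries over 3 against 3 would give 1.118. The sources used here do not say which libraries entered the fit. The spread behind each SE is one between pools of 2 mice. Bdnf, the modified gene, was at 5.23 log2 CPM, and its CORT effect was -0.03 ± 0.09 in WT and 0.33 ± 0.08 in het-Met mice. The limma p adjusted over all genes was 0.999 in WT and 0.254 in het-Met mice. For the difference between genotypes (t test) the uncorrected p was 0.0102 and the adjusted p 0.9999. The variant alters the protein, so the level of Bdnf does not check the genotype labels.

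Defining markers of hippocampal principal cells were abundant. Slc17a7, the vesicular glutamate transporter of principal cells, was at 10.52 log2 CPM and Prox1, which marks dentate granule cells, at 6.68 log2 CPM. Genes used as markers of neighbouring tissue were measured too, though a level alone does not show which cells made the mRNA. Ttr of the choroid plexus was at 9.44 log2 CPM with an SE of its CORT effect of 2.32 in WT, the striatal marker Ppp1r1b was at 5.43 log2 CPM, and the thalamic marker Tcf7l2 was at 2.51 log2 CPM. Of 10 choroid plexus genes, all 10 had a negative CORT effect in WT and 8 of 10 a positive one in het-Met mice, with medians of -1.49 and 0.17 and median SEs of 1.62 and 1.48, and none passed an uncorrected p of 0.05. Among them Kcne2 had the smallest p, with -1.89 ± 1.83 in WT.

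CORT moved none of the 8 genes past a limma p adjusted over all genes, in either genotype. In WT mice 7 of 8 had a positive CORT effect, from -0.01 (Pvalb) to 0.19 (Reln), and 0 of 8 had an uncorrected p below 0.05, where 3.83% of all genes did (2.25% higher and 1.57% lower under CORT). In het-Met mice 6 of 8 had a positive effect, from -0.19 (Calb2) to 0.15 (Reln), and 1 of 8, Gad1, had an uncorrected p below 0.05, where 13.2% of all genes did (6.55% higher and 6.64% lower). The adjusted threshold of 0.05 was passed by 0% of all genes in WT and 0% in het-Met mice, and the smallest adjusted p of the 8 genes was 0.999 and 0.362. A differentially expressed gene (DEG) in the sense of the study, which needs a fold change above 1.3 and an uncorrected p below 0.05, was none of the 8 in either genotype, where 1.25% of all genes were DEGs in WT and 3.24% in het-Met mice. Of all genes 48.9% had a positive effect in WT and 48.2% in het-Met mice. The median CORT effect of the 8 genes was 0.07 in WT and 0.04 in het-Met mice, beside -0.0026 and -0.0061 over all genes. Gad1, Gad2, Nos1 and Reln lie in the quintile of highest expression, whose medians were 0.019 and 0.035. In a bulk sample, fewer cells of a type and less RNA per cell cannot be told apart, and the same holds for more of either.

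In the text that follows, a list gene is called higher or lower under CORT where its uncorrected limma p was below 0.05, and the p printed is the one adjusted over all 17564 genes, which was 0.999 or above for every gene in WT and is not repeated there. All lists were chosen with earlier results of these data known, so a share of calls in a list is description and no independent support.

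By the moderated SE, the size of change these data leave room for was small for most of the genes. The 95% interval of the CORT effect lay within a 1.3-fold change in both directions (0.38 on the log2 scale) for 5 of 8 genes in WT and for 7 of 8 in het-Met mice. Averaged over both genotypes, with the mean of both effects and an SE from both, this was so for all 8 genes. These counts were not repeated with the ordinary SE and hold for the moderated SE alone. With the ordinary SE, the uncorrected p of the average (t test) went from 0.0496 to 0.105 for Reln and from 0.698 to 0.755 for Calb2. The average effect was positive for 7 of 8, where 47.8% of all genes were positive. Its median was 0.06, beside -0.0049 over all genes and 0.026 in the quintile of highest expression. On this average 2 of 8 genes, Gad1 and Reln, had an uncorrected p below 0.05, where 13.3% of all genes did (7.17% higher and 6.18% lower), and 0 of 8 passed the adjusted threshold, where 0.074% of all genes did.

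**Figure D1:**
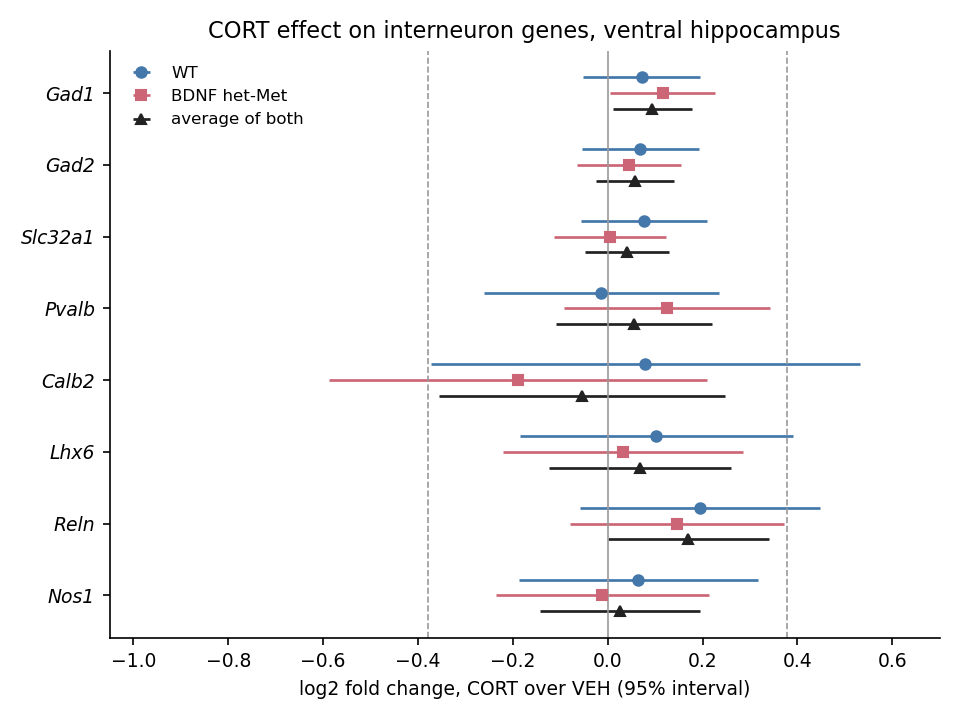
The horizontal axis is the log2 fold change of CORT over VEH, and each row is 1 gene with its effect in WT (circles), in het-Met mice (squares) and averaged over both (triangles). Bars are 95% intervals from the limma fit and dashed lines mark a 1.3-fold change. The intervals of Calb2 cross a dashed line in both genotypes, and those of Lhx6 and Reln do so in WT alone. Those of Gad1, Gad2 and Slc32a1 stay well inside.

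The enzymes of GABA synthesis were the most abundant of the 8 genes and the most precisely measured. Gad1 (ENSMUSG00000070880, chr2:70553072-70602014, plus strand, GRCm38) was at 8.57 log2 CPM. Its CORT effect was 0.07 ± 0.06 in WT and 0.12 ± 0.05 in het-Met mice (adjusted p = 0.362), which is 5.08% and 8.36% more mRNA, with 95% intervals of -3.58 to 14.5% and 0.342 to 17.0%. The average over genotypes was 6.71% more (0.728 to 13.0%), with an adjusted p of 0.328. Gad1 lies in the quintile of highest expression, of which 21.0% had an uncorrected p below 0.05 in het-Met mice (16.1% higher under CORT) and 22.3% on the average (18.4% higher). After subtraction of that quintile's median effect of 0.035 the Gad1 effect in het-Met mice was 0.08, and it no longer passed the uncorrected threshold, nor did it with the ordinary in place of the moderated SE.

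Gad2 (ENSMUSG00000026787, chr2:22622205-22693874, plus strand), whose enzyme works mainly at the nerve terminal, was at 7.81 log2 CPM. Its CORT effect was 0.07 ± 0.06 in WT and 0.05 ± 0.05 in het-Met mice (adjusted p = 0.739). The average was 4.03% more mRNA, with an interval of -1.74 to 10.1%. The WT estimates of Gad1 and Gad2 were nearly equal, and the interval of the Gad2 average included 0.

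Slc32a1 (ENSMUSG00000037771, chr2:158610767-158615748, plus strand), the vesicular transporter shared by all GABAergic cells, was at 5.76 log2 CPM. The CORT effect was 0.08 ± 0.06 in WT and 0.0049 ± 0.05 in het-Met mice (adjusted p = 0.980). The average of 2.84% had an interval of -3.31 to 9.39%, so a 1.3-fold change in either direction lay outside it. In the annotation Slc32a1 shares 697 exon bases with the antisense gene Gm14205, which the tables do not list, and since the use of strand in counting is not stated, reads of the pair cannot be told apart.

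The genes that recycle and break down GABA did not move together. Of 11 such genes 0 passed an uncorrected p of 0.05 in WT, and in het-Met mice 1 was higher and 2 were lower, with a median of 0.03 in that genotype. These are shares of 0% and 27.3%, beside 3.83% and 13.2% of all genes, and on the average 36.4% passed beside 13.3%. Glul, the glutamine synthetase of astrocytes, was higher in het-Met mice (0.15 ± 0.06, adjusted p = 0.330) and was 0.09 ± 0.07 in WT. Slc38a1, which carries glutamine into neurons, passed on the average (0.12 ± 0.04, adjusted p = 0.257). The astrocytic GABA transporter Slc6a11 (GAT-3) was lower in het-Met mice (-0.18 ± 0.06, adjusted p = 0.271) and at -0.01 ± 0.06 in WT. The glutamine transporter Slc38a5 was also lower there (-0.67 ± 0.30, adjusted p = 0.377), at a low level of 1.39 log2 CPM, and was the single DEG of the list.

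Gad1, Gad2 and Slc32a1 are also expressed by GABAergic projection neurons of the striatum and amygdala, which border the vHPC. Of 9 markers of those neurons found in the tables (10 listed), 5 had a positive CORT effect in WT and 0 in het-Met mice, with medians of 0.0078 and -0.33 and median SEs of 0.44 and 0.37. None passed an uncorrected p of 0.05 in either genotype. The smallest p was that of Pde10a, a phosphodiesterase of striatal neurons, with 0.10 ± 0.05 in WT and -0.08 ± 0.04 in het-Met mice (adjusted p = 0.427), and the defining marker Ppp1r1b was at 0.01 in WT and -0.26 in het-Met mice. Of 7 thalamic genes (8 listed) Tcf7l2 was lower in het-Met mice (-0.35 ± 0.16, adjusted p = 0.378) and Rora on the average (-0.12 ± 0.06, adjusted p = 0.365). For the thalamic list the shares were 0% in WT, 14.3% in het-Met mice and 14.3% on the average. All genes stood at 3.83%, 13.2% and 13.3%. The part of these tissues in the values of the 8 interneuron genes was not tested.

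A few genes of neurons in general were higher under CORT. Of 6 genes that all neurons express, Map2, a dendritic microtubule protein, was higher in both genotypes (0.10 ± 0.04 in WT and 0.10 ± 0.04 in het-Met mice, adjusted p = 0.319), and the neuronal enolase Eno2 was higher on the average (0.08 ± 0.03, adjusted p = 0.323). Of 8 genes of excitatory neurons, Camk2a, a kinase of principal cells, was higher in WT (0.13 ± 0.06) and the transcription factor Neurod6 in het-Met mice (0.23 ± 0.09, adjusted p = 0.319). The medians of the general neuronal list were 0.03 in WT and 0.07 in het-Met mice, and those of the excitatory list were -0.05 and 0.0034. Of the general list 16.7% passed in WT and 16.7% in het-Met mice, and of the excitatory list 12.5% and 12.5%. All genes stood at 3.83% and 13.2%.

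Lhx6 (ENSMUSG00000026890, chr2:36081953-36105408, minus strand), which directs the migration and fate of interneurons from the medial ganglionic eminence and stays on in the adult cells, was at 4.51 log2 CPM. Its CORT effect was 0.10 ± 0.13 in WT and 0.03 ± 0.11 in het-Met mice (adjusted p = 0.933). The average of 4.79% had an interval of -8.23 to 19.7%. It shares 104 exon bases with the small RNA gene Gm27953 on the same strand, which the tables do not list.

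The other transcription factors of the interneuron lineage gave 1 call in each genotype. Of 15 genes, 1 passed an uncorrected p of 0.05 in WT and 1 in het-Met mice, both higher, and 0 passed on the average, with medians of 0.0029, -0.09 and -0.04. These are shares of 6.67%, 6.67% and 0%, beside 3.83%, 13.2% and 13.3% of all genes. Dlx5, a homeobox factor of the ganglionic eminences, was higher in WT (0.51 ± 0.21) and was 0.0028 ± 0.19 in het-Met mice, at a level of 1.66 log2 CPM. Dlx6os1, a noncoding RNA of the same locus, was higher in het-Met mice (0.18 ± 0.08, adjusted p = 0.377) and was 0.02 ± 0.09 in WT. The difference between genotypes did not pass an uncorrected p of 0.05 for either, at -0.50 for Dlx5 (95% interval -1.13 to 0.13) and 0.16 for Dlx6os1 (-0.11 to 0.42).

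Pvalb (ENSMUSG00000005716, chr15:78191114-78206400, minus strand) was at 4.21 log2 CPM, the lowest of the 8 genes before length is taken into account. The effect of CORT on it was -0.01 ± 0.11 in WT and 0.12 ± 0.10 in het-Met mice (adjusted p = 0.628). The estimates lay on either side of 0, and the average of 3.92% had an interval of -7.29 to 16.5%.

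Genes of the fast-spiking phenotype, which Pvalb cells need for their short action potentials and high energy use, had mostly positive effects. Of 13 genes 11 were positive in WT and 10 in het-Met mice, 0 and 3 passed an uncorrected p of 0.05, and 5 passed on the average, all of them higher. These are shares of 0%, 23.1% and 38.5%, beside 3.83%, 13.2% and 13.3% of all genes, while 18.4% of the quintile of highest expression were higher on the average. The medians were 0.08 in WT, 0.08 in het-Met mice and 0.10 on the average. Scn1a, the sodium channel NaV1.1, was at 0.11 ± 0.06 in WT and higher in het-Met mice (0.19 ± 0.05, adjusted p = 0.264), with an average of 0.15 ± 0.04 (adjusted p = 0.208). The potassium channel subunit Kcns3 was higher in het-Met mice (0.38 ± 0.12, adjusted p = 0.268), as was Kcnc2 (Kv3.2; 0.15 ± 0.06, adjusted p = 0.351). The regulator of mitochondria Ppargc1a (0.15 ± 0.05, adjusted p = 0.278) passed on the average alone. Most of these genes are expressed by principal cells as well, and none passed an adjusted p.

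The perineuronal net, the matrix that wraps many Pvalb cells, held the largest share of calls of the lists. As the lists were chosen with earlier results known, this order is a description only. Of 9 genes found (10 listed), 2 were lower in WT, and 4 were lower and 1 higher in het-Met mice, the same counts as on the average. The shares were 22.2% in WT, 55.6% in het-Met mice and 55.6% on the average, beside 3.83%, 13.2% and 13.3% of all genes, on a list of 9. Neurocan (Ncan), a lectican, was lower in WT (-0.15 ± 0.06) and in het-Met mice (-0.29 ± 0.06, adjusted p = 0.189), with an average of -0.22 ± 0.04 (adjusted p = 0.137). The link protein Hapln1 was lower in both genotypes (-0.19 ± 0.08 and -0.17 ± 0.07, adjusted p = 0.325). In het-Met mice brevican (Bcan; -0.19 ± 0.07, adjusted p = 0.308) and the receptor phosphatase Ptprz1 (-0.17 ± 0.06, adjusted p = 0.289) were lower, and tenascin-R (Tnr; 0.21 ± 0.09, adjusted p = 0.349) was higher. Ncan, Bcan and Ptprz1 are made largely by glia and their precursors and belong to the general matrix of the brain, so these values are not ones of Pvalb cells alone. The list's median was 0.04 in WT and 0.03 in het-Met mice, opposite in sign to most of its calls.

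Calb2 (ENSMUSG00000003657, chr8:110137502-110168210, minus strand) was at 5.80 log2 CPM and had the widest error of the 8 genes. The CORT effect was 0.08 ± 0.20 in WT and -0.19 ± 0.18 in het-Met mice (adjusted p = 0.695). As a change of mRNA the intervals ran from -22.7 to 44.5% in WT and from -33.4 to 15.7% in het-Met mice. A 1.3-fold rise in WT and a 1.3-fold fall in het-Met mice thus lay within the intervals and would not have been detectable at this precision. Its SE was larger than that of 98.2% of genes in its decile of expression. The hilar mossy cells, which hold calretinin too, gave 1 call among 4 marker genes, Ociad2, higher in het-Met mice (0.30 ± 0.08, adjusted p = 0.264) and at 0.13 ± 0.09 in WT. The shares were 0% in WT and 25% in het-Met mice, beside 3.83% and 13.2% of all genes. In het-Met mice 1 of the 4 had a positive effect and 3 had a negative one. The median of the 4 was 0.06 in WT and -0.13 in het-Met mice.

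Other subtype markers moved in both directions. Of 19 genes, 2 were higher and 1 lower in WT at an uncorrected p below 0.05, 1 was higher and 3 were lower in het-Met mice, and 2 were higher and 1 lower on the average, with medians of 0.02, -0.03 and -0.01. These are shares of 15.8%, 21.1% and 15.8%, beside 3.83%, 13.2% and 13.3% of all genes. The neuropeptide cholecystokinin (Cck), which marks a class of basket cells and is also made by principal cells, was lower in WT (-0.20 ± 0.09) and in het-Met mice (-0.25 ± 0.08, adjusted p = 0.272). The calcium buffer Calb1, abundant in granule cells, was higher in WT (0.28 ± 0.11) and was 0.19 ± 0.09 in het-Met mice (adjusted p = 0.428). Elfn1, a synaptic protein of somatostatin cells, was higher in WT (0.18 ± 0.07) and was -0.03 ± 0.06 in het-Met mice. In het-Met mice the receptor kinase Kit was higher (0.28 ± 0.12, adjusted p = 0.354), and Lamp5, a marker of neurogliaform cells, was lower (-0.28 ± 0.11, adjusted p = 0.319). The third gene lower there, neuropeptide Y (Npy; -0.30 ± 0.12, adjusted p = 0.330), falls outside the rule for named genes and was added after its value was seen.

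Reln (ENSMUSG00000042453, chr5:21884454-22344702, minus strand) was at 6.64 log2 CPM and had the largest average effect of the 8 genes. Its CORT effect was 0.19 ± 0.11 in WT and 0.15 ± 0.10 in het-Met mice (adjusted p = 0.575). In percent this was 14.4% more mRNA in WT (-4.03 to 36.3%) and 10.6% more in het-Met mice (-5.37 to 29.4%). The average of 12.5% had an interval of 0.0229 to 26.5% and an adjusted p of 0.374, and passed the uncorrected threshold. The uncorrected threshold was no longer passed with the ordinary SE, nor after subtraction of the median effect of the top quintile of expression, where Reln also lies. Reln shares 246 exon bases with the antisense gene Gm10475, which the tables do not list.

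The receptors and transducers of reelin were split. Of 10 genes 0 passed an uncorrected p of 0.05 in WT, and 2 were higher and 1 lower in het-Met mice, with medians of 0.0066 and 0.05. These are shares of 0% and 30%, beside 3.83% and 13.2% of all genes, and on the average 20% passed beside 13.3%. The receptor Vldlr was higher in het-Met mice (0.17 ± 0.06, adjusted p = 0.326) and was 0.13 ± 0.07 in WT. The kinase Fyn, which phosphorylates the adaptor Dab1, was lower (-0.15 ± 0.05, adjusted p = 0.275) and was -0.10 ± 0.05 in WT, and the adaptor Crk was higher (0.09 ± 0.03, adjusted p = 0.307) and was -0.02 ± 0.04 in WT. Of the Cajal-Retzius markers 3 of 5 listed were in the tables, and 1 of them, the transcription factor Nhlh2, was higher in het-Met mice (0.43 ± 0.18, adjusted p = 0.349) and was 0.22 ± 0.20 in WT, at 1.21 log2 CPM. The shares of these 3 were 0% in WT and 33.3% in het-Met mice, beside 3.83% and 13.2% of all genes. The part of Cajal-Retzius cells in the Reln value was not tested.

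Nos1 (ENSMUSG00000029361, chr5:117781032-117958840, plus strand) was at 7.56 log2 CPM. The effect of CORT on it was 0.06 ± 0.11 in WT and -0.01 ± 0.10 in het-Met mice (adjusted p = 0.975), and the average of 1.87% had an interval of -9.38 to 14.5%. It shares 268 exon bases with the antisense gene Gm26995, which the tables do not list. On the average this was the estimate closest to 0 of the 8 genes.

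Partners and effectors of nitric oxide gave calls in both directions. Of 12 genes found (14 listed), 1 was higher in WT, 1 was higher and 2 were lower in het-Met mice, and 2 were higher and 1 lower on the average, with medians of 0.00069, -0.02 and -0.0021. These are shares of 8.33%, 25% and 25%, beside 3.83%, 13.2% and 13.3% of all genes. Nos1ap, the adaptor that binds the enzyme, was higher in both genotypes (0.20 ± 0.09 and 0.20 ± 0.08, adjusted p = 0.327). Ddah1, which breaks down the methylated arginines that inhibit the enzyme, was lower in het-Met mice (-0.30 ± 0.09, adjusted p = 0.268) and was -0.19 ± 0.10 in WT. Of the subunits of the nitric oxide receptor, guanylyl cyclase, Gucy1a1 was lower in het-Met mice (-0.46 ± 0.15, adjusted p = 0.282) and was 0.02 ± 0.18 in WT, whereas Gucy1a2 was higher on the average (0.28 ± 0.11, adjusted p = 0.306).

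**Figure D2:**
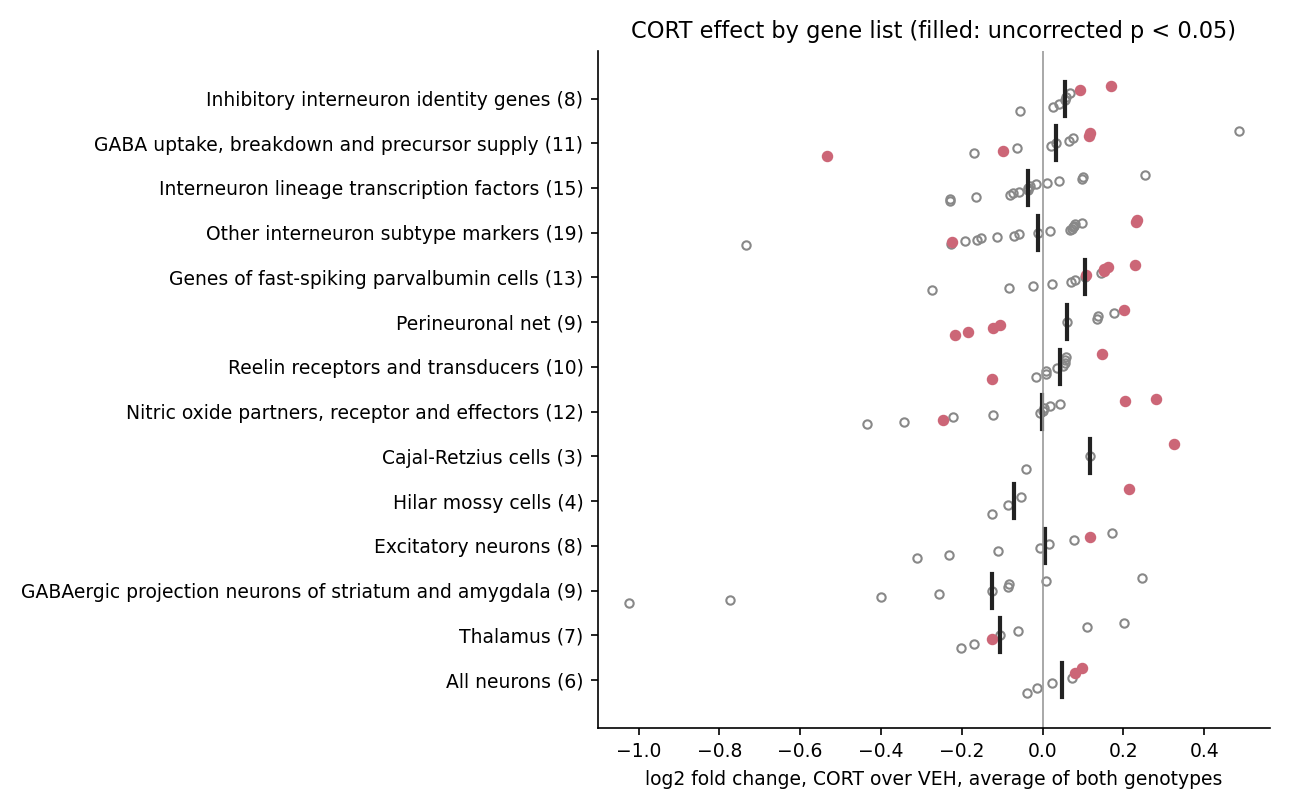
Each point is 1 gene of a list, placed by its CORT effect averaged over both genotypes (log2 fold change, CORT over VEH), with the number of genes in brackets, and vertical bars are list medians. Filled points have an uncorrected p below 0.05, and all 5 filled points of the fast-spiking list lie above 0, while 4 of the 5 of the perineuronal net lie below; the choroid plexus list, with a median of -0.65, is left out.

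The 7 lists of interneuron and pathway genes above, from GABA handling to nitric oxide, held 89 measured genes besides the 8. Of these 4 were higher and 3 lower in WT at an uncorrected p below 0.05, which is 7.87% beside 3.83% of all genes. In het-Met mice 10 were higher and 12 lower, which is 24.7% beside 13.2% of all genes and 21.0% of the quintile of highest expression. On the average 13 were higher and 9 lower, which is 24.7% beside 13.3% of all genes and 22.3% of that quintile, and 0 of 89 passed an adjusted p in any of these comparisons. That quintile is not matched in level to the 89 genes, which include ones as low as Chodl at -1.27 log2 CPM. In the quintile of lowest expression 7.29% of genes passed in het-Met mice and 8.17% on the average. The 8 interneuron genes themselves stood at 0%, 12.5% and 25.0% in WT, in het-Met mice and on the average, the last being 2 of 8 beside the same 13.3% and 22.3%.

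The CORT effect on the 8 genes did not differ detectably between genotypes. The difference, het-Met minus WT, had an uncorrected p below 0.05 for 0 of 8 genes, where 2.41% of all genes passed, and the adjusted threshold was passed by 0% of all genes. The difference nearest to passing was that of Calb2, at -0.27 on the log2 scale with a 95% interval of -0.87 to 0.33. For Pvalb the difference was 0.14, with an interval of -0.19 to 0.47. The narrowest intervals were those of the GABA synthesis genes, with 0.04 for Gad1 (-0.12 to 0.21) and -0.02 for Gad2 (-0.19 to 0.14). The difference of Slc32a1 was -0.07 (-0.25 to 0.11). Gad1 passed an uncorrected p in het-Met mice and not in WT, but the difference between genotypes did not. The remaining genes had differences of -0.07 (Lhx6), -0.05 (Reln) and -0.08 (Nos1). Of the 8 genes 5 had a positive estimate in both genotypes.

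Levels can be compared between genes only per length of transcript. Per kb of all annotated exons, Gad1 was highest at 5.63 log2 (CPM per kb), which is 49.6 CPM per kb, followed by Gad2 at 5.26 and Calb2 at 5.0. Slc32a1 (4.28), Pvalb (4.15) and Nos1 (4.08) followed close together, and Lhx6 (2.24) and Reln (2.07) were lowest. The residual SD between libraries, taken from the SE of the fit, was 0.06 for Gad1, Gad2 and Slc32a1, 0.14 for Pvalb, 0.15 for Nos1 and Reln, 0.16 for Lhx6 and 0.27 for Calb2, all on the log2 scale. These SDs are the spread of single libraries of 1 gene and leave out the error of the length. A step set against them is a description and does not test whether 2 levels differ. The steps from Gad1 to Gad2 (0.38), from Calb2 to Slc32a1 (0.72) and from Nos1 to Lhx6 (1.83) exceeded these SDs. The steps from Gad2 to Calb2 (0.26) and from Pvalb to Nos1 (0.07) lay within the larger SD of the pair, as did that from Slc32a1 to Pvalb (0.13), and the step from Lhx6 to Reln (0.17) was just above it. Per kb of the longest transcript instead, Gad1 was at 6.72 and Reln at 3.09, shifts of 1.08 and 1.02, and Lhx6 stood below Reln at 2.71, so the order of the lowest pair rests on the length used. Per kb of all exons, the mRNA of the transporter gene Slc32a1 was thus at 19.4 CPM per kb beside 49.6 for Gad1 and 38.2 for Gad2. Per kb of the longest transcript, Slc32a1 was at 4.28 log2 (CPM per kb) beside 6.72 for Gad1 and 5.29 for Gad2. The size of the gap to Gad1 thus also rests on the length used.

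The subtype genes were measured less precisely than genes of the same abundance. Ranked by SE within its decile of expression, Calb2 stood at the 98.2 percentile, Nos1 at 93.9, Reln at 93.3, Lhx6 at 87.4 and Pvalb at 81.3. Gad1, Gad2 and Slc32a1, which all GABAergic cells share, stood at 46.1, 44.9 and 44.0. The 3 shared genes were thus near the middle for their abundance, and the 5 subtype genes varied more between libraries than most genes of their level.

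**Figure D3:**
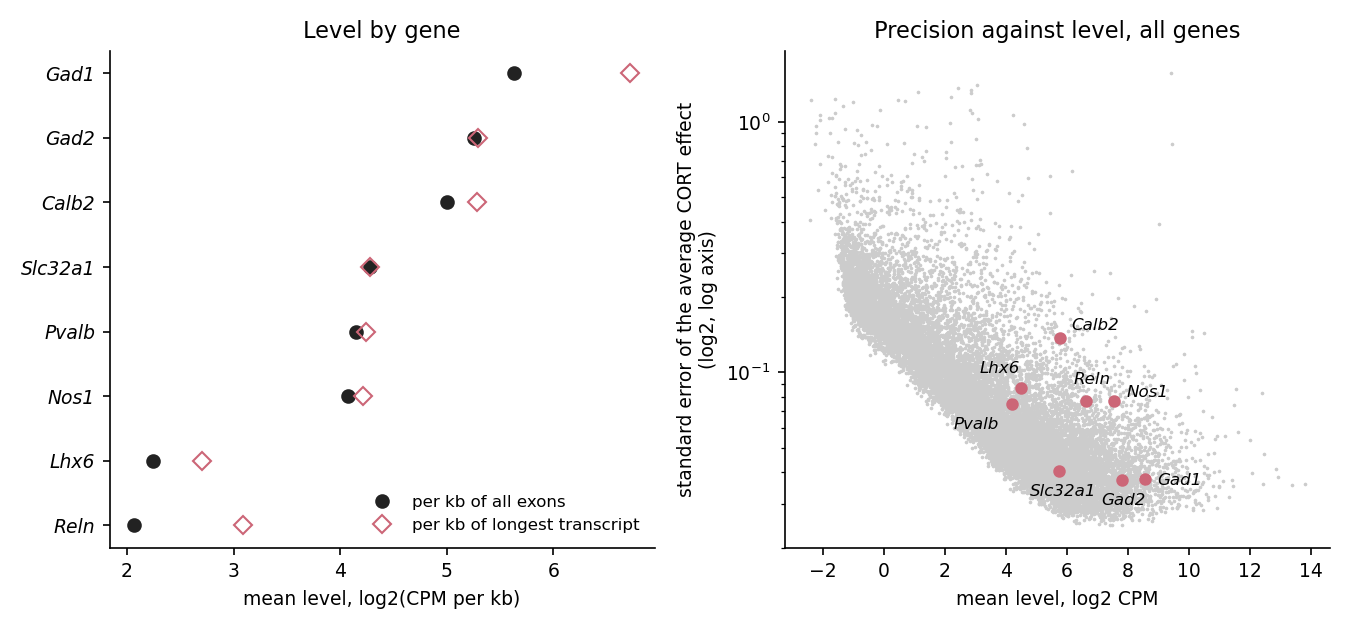
In the left panel the mean level per kb, in log2 (CPM per kb), of the 8 genes is drawn with all exons (filled circles) and with the longest transcript (open diamonds) as the length. In the right panel the SE of the average CORT effect (log2, log axis) is drawn against mean level in log2 CPM for all 17564 genes (grey) and the 8 genes (red), where Calb2, Nos1, Reln, Lhx6 and Pvalb lie in the upper part of the cloud and Gad1, Gad2 and Slc32a1 in its middle.

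The tables also hold a joint F over 3 contrasts, from which a remainder for the contrast between genotypes was taken, namely 3 F less the squares of the t values of the CORT effects. This genotype statistic has no sign and no p, and its median over all genes was 0.433. It was highest for Gad2, at 5.28, above which 2.85% of all genes lay, and was 2.32 for Slc32a1 and 1.06 for Reln. For the others it was lower, with Calb2 at 0.650, Lhx6 at 0.450, Pvalb at 0.347, Nos1 at 0.102 and Gad1 at -0.000559. The subtraction is not exact, as 610 genes came out below 0, by at most -0.118, so the value of Gad1 cannot be told from 0. Gad2 stood at the 97.2 percentile of all genes.

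Of the 8 genes 4 lie on chromosome 2, the chromosome of Bdnf, which holds 7.65% of the genes with a position. A knock-in can carry flanking sequence of the strain it was made in, so the distance from Bdnf is given: relative to the start of Bdnf, Gad2 lies at -87.1 Mb, Lhx6 at -73.6 Mb, Gad1 at -39.1 Mb and Slc32a1 at 48.9 Mb. The 117 genes within 10 Mb of Bdnf had a median genotype statistic of 0.816, beside 0.440 for the rest of the chromosome. The window cuts through the region of high values, since of 15 genes above 20 on the chromosome 6 lie inside it and 9 outside, and all 15 lie between -5.02 and 22.6 Mb. The 4 interneuron genes are outside that window, and the part of position in the statistic of Gad2 was not tested.

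**Figure D4:**
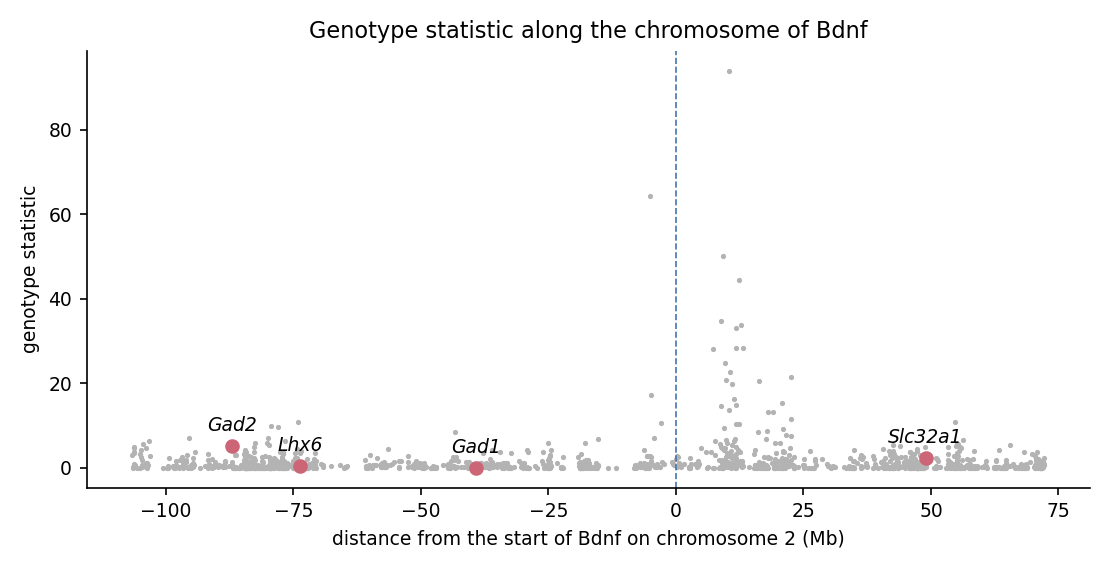
The genotype statistic, which has no unit and no sign, is drawn for the 1343 genes of chromosome 2 against the distance of each from the start of Bdnf in Mb (dashed line), with the 4 interneuron genes in red. Gad2 stands at 5.28 at the far left, while of the 15 points above 20, 1 lies before Bdnf and 14 lie after it, up to 22.6 Mb away.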

How the data were processed

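Gene symbols Gad1, Gad2, Slc32a1, Pvalb, Calb2, Lhx6, Reln and Nos1 were looked up in both tables. The members and all gene lists were chosen with earlier results of these data known. The authors discarded reads with a score below 15, aligned the rest with STAR, counted with featureCounts and fitted limma-voom on GRCm38 (versions not given in the sources used here). Total counts per library are unknown here, so precision is given by the SE alone. The deposited log2 values are mean expression (log2 CPM), the fold change of VEH minus CORT and its SE. The deposited p-values are uncorrected and Benjamini-Hochberg adjusted, and the deposited scores are the moderated t and the joint F, all made by the authors. These are comparison columns of the authors' own fit, and every effect given here rests on them.

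The sign was turned to CORT over VEH, which rests on the comparison names; Fkbp5, a glucocorticoid target, was higher under CORT in both genotypes (0.21 and 0.43). The SE is the log2 fold change over t. The difference and the average of both genotypes were tested with t at 10.91 total degrees of freedom and adjusted over all 17564 genes. These formulas were tested on simulated data with limma 3.58.1. The simulation had no weights per value, which limma-voom uses, so it does not test that part of the fit. The DEG rule was a fold change above 1.3 with an uncorrected p below 0.05. Named genes were the 8, and per other list at most 5 genes with an uncorrected p below 0.05 in either genotype or the average, by smallest p, or the gene of smallest p where none passed. A single gene that this rule takes is not reported here. Positions and lengths came from GENCODE M21 on GRCm38, where 17551 of 17564 identifiers matched. Transcript sequences of the 8 genes were compared with blastn 2.17.0, and no pair of them matched over at least 75 bases at 95% identity or more. Matches to other genes are not given here. The alternatives were the ordinary SE, centring, a level filter, other thresholds and another length. p-values measure the spread between pooled libraries. Python 3.11.15 was used.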

Additional observations from a re-analysis of the deposited data

Results flagged for a closer look

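None of the 8 interneuron genes passed an uncorrected p of 0.05 for a difference between genotypes in its CORT effect. Of 144 genes in all lists, 5 (3.47%) did, beside 2.41% of all genes, and the adjusted p was at least 0.9999 for every gene (contrast derived from the limma fit). The difference, BDNF het-Met minus WT on the log2 scale, was -0.19 for Pde10a, a marker of striatal neurons, whose CORT effect was 0.10 for WT mice and -0.08 for BDNF het-Met mice. Sp8, a transcription factor of caudal and lateral interneuron lineages at a level of 0.26 log2 CPM, had a difference of -0.65, from 0.29 to -0.36. The thalamic marker Tcf7l2 had a difference of -0.58 (0.23 and -0.35), Elfn1 of somatostatin cells one of -0.21 (0.18 and -0.03), and Neurod6 of excitatory neurons one of 0.30 (-0.07 and 0.23).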

How the results depend on the processing

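Counts of the 8 genes past an adjusted p of 0.05 were 0 under each alternative run. At an uncorrected p below 0.05 the count in BDNF het-Met mice went from 1 to 0 with the ordinary SE and to 0 with each expression quintile centred on its own median. The count on the average went from 2 to 1 with the ordinary SE and to 0 with that centring. Centring by quintiles turned the average effect of Nos1 to -0.000408. Of 32 values (8 genes, 4 comparisons), all 32 kept their direction and side of the threshold with centring on all genes and with a filter on levels above 0 log2 CPM, 30 did with the ordinary SE and 28 with centring by quintiles. Of 89 genes in the 7 lists, the 7 past the threshold in WT became 0 at a p below 0.01, 1 with a fold change above 1.3 and 2 above 1.2, and the 22 in BDNF het-Met mice became 7, 2 and 8. The span of levels per kb went from 3.56 to 4.01 with the longest transcript. The causes were not tested. Fits without 1 replicate were not run, since values per library were not analysed here. No paired analysis was possible because the tables hold fitted effects and no values of numbered replicates.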
